A study of Mus musculus with 25 samples.

Results

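RAW 264.7 mouse macrophages that had been kept for 6 h in medium with 0.35 mM hypochlorous acid (HOCl) were set against the same cells at 0 mM HOCl. The members were the 3 arrays titled 0.35 mM (replicate 2 is written 00.35 mM in its title) and the 4 arrays titled 0 mM, 7 of the 25 arrays of a series that also held 6 other doses, the lowest 0.14 mM and the highest 3.5 mM. RAW 264.7 is an established line of mouse macrophages transformed by Abelson leukemia virus, so both groups come from 1 transformed line. Cultures of both groups were near confluence when treated, in DMEM with fetal bovine serum, and 1 Affymetrix Mouse Genome 430 2.0 array was hybridized with labelled RNA of each. The design text calls the replicates biological. Standard errors and p-values of the main fit rest on a spread pooled over all 25 arrays and their doses, not on the 7 arrays alone. All 45037 probe sets other than the platform's controls were compared, and 18193 genes are described by the brightest of their probe sets. The question was which genes and pathways differ in their transcripts between cells at this dose and cells without HOCl.

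HOCl is the oxidant that myeloperoxidase of neutrophils makes from hydrogen peroxide and chloride, and macrophages meet it in inflamed tissue. It oxidizes thiols. In most cells oxidized thiols release the transcription factor NRF2 from its inhibitor KEAP1, and NRF2 then raises genes of glutathione, thioredoxin, heme and iron metabolism. Macrophages also carry pathways that answer microbial products: NF-kB, held in the cytosol by the IkB proteins, drives cytokines and chemokines, and interferon beta acts back on the cells through its receptor to raise antiviral genes.

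Values below are log2 signals on a scale where each array has a median of 0, differences are 0.35 mM minus 0 mM with the standard error of the limma fit, and a gene is said to have risen or fallen at an adjusted p under 0.05. With 3 and 4 arrays the number of arrays limits the precision. Several arrays stood apart. Replicate 1 of 0 mM correlated with the other 0 mM arrays at a mean r of 0.957 across probe sets and had a difference of 0.36 between its 3′ and 5′ Gapdh control probe sets, against -0.08 to -0.04 on the 0.35 mM arrays and -0.07 to -0.01 on the other 0 mM arrays. Replicate 3 of 0 mM correlated better with replicate 1 of 0.35 mM (r = 0.983) than with any array of its own dose (0.962 to 0.978), and replicates 2 and 4 of 0 mM were most alike (r = 0.996). Replicate 2 of 0.35 mM had an upper quartile of 1.39, against 1.67 and 1.70 on the other 0.35 mM arrays. Replicate 3 of 0.35 mM had a mean of 1.75 over 8 probe sets for Bacillus spike-in transcripts, against 0.83 to 1.01 on the other 0.35 mM arrays and 0.74 to 1.12 on the 0 mM arrays. Results are therefore given with and without these arrays, and the part of these differences in the results was not tested beyond that.

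Gene lists used here and below, and their members, were chosen with earlier results of these data known. Counts over a list, set beside the shares over all genes, therefore describe its members and are no test of the group. Of 35 macrophage identity and receptor genes 6 rose and 4 fell, where 2.12% of all genes were called higher and 5.56% lower. The falls were Gpr183 (-2.35), Trem2 (-1.70), Adgre1, which encodes the antigen F4/80 (-1.29), and Fcgr3 (-1.06). Lysozyme (Lyz2) averaged 8.30 ± 0.05 at 0.35 mM and 8.04 ± 0.17 at 0 mM (SD, n = 3 and n = 4). The receptor for macrophage colony-stimulating factor (Csf1r) averaged 7.41 ± 0.20 at 0.35 mM and 7.44 ± 0.32 at 0 mM, and the lysosomal glycoprotein Cd68 6.66 ± 0.09 at 0.35 mM and 6.78 ± 0.19 at 0 mM. Of 40 measured markers of neutrophils, lymphocytes, stromal, mast and erythroid cells, 2 were called higher, S100a8 and Kdr, and none lower. The mean level of the 40 lay between 0.05 and 0.17 on the 0.35 mM arrays and between -0.18 and -0.04 on the 0 mM arrays. The mean of the 9 neutrophil markers lay between 0.10 and 0.33 on the 0.35 mM arrays and between -0.51 and -0.18 on the 0 mM arrays. Both means include S100a8, which rose by 4.17. The median difference was 0.09 over the 40 markers and 0.10 over the 9. S100a9, the partner of S100a8 in calprotectin, had -0.80, -0.57 and -0.94 at 0.35 mM, against -0.69, -1.05, -1.04 and -1.15 at 0 mM, with overlap, and S100a8 was the 1 neutrophil marker called. The part of other cells in the results was not tested. The 7 measured control genes differed by -0.02 to 0.44 with a median of 0.25, and 0 were called by limma (2 at an unadjusted p under 0.05), among them Actb at 0.25 ± 0.11 (adjusted p = 0.185).

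At 0.35 mM 385 genes were higher (2.12% of the 18193) and 1011 lower (5.56%), 1396 in all (7.67%). At least 2-fold, 193 were higher (1.06%) and 353 lower (1.94%). Of the 45037 probe sets 771 were higher (1.71%) and 2127 lower (4.72%). On the quantile-normalized values the split was 574 higher and 904 lower. All 0.35 mM arrays lay above all 0 mM arrays in 1230 genes (6.76%) and below them in 1612 genes (8.86%), and 365 of these were called higher (2.01%) and 860 lower (4.73%). The median difference over all genes was 0.03. RNA of whole cultures was measured, so fewer cells expressing a gene and less RNA per cell cannot be told apart. The counts rest on single arrays to a large degree: 908, 75 and 1223 genes were called without replicate 1, 2 and 3 of 0.35 mM, and 1243, 388, 2318 and 493 without replicate 1, 2, 3 and 4 of 0 mM. Without replicate 2 of 0.35 mM 34 genes were higher (0.187%) and 41 lower (0.225%). The 7 arrays alone gave 431 genes, 210 higher (1.15%) and 221 lower (1.21%), and the 11 of the 25 arrays with a low spike level, which leave out replicate 3 of 0.35 mM, gave 344 higher (1.89%) and 559 lower (3.07%).

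The 3 largest rises were those of Csf3, Fabp4 and Acod1. Csf3, which encodes granulocyte colony-stimulating factor, had 7.17, 6.96 and 6.94 at 0.35 mM, against -0.31, -0.23, -0.57 and -0.06 at 0 mM. Its arrays fell into separate ranges with no 0 mM array above 0, and the difference was 7.31 ± 1.51 (adjusted p = 0.0102). This standard error includes the spread at other doses: the SD of Csf3 was 0.13 at 0.35 mM, 0.21 at 0 mM and 4.16 at 0.7 mM. Fabp4, a fatty acid-binding protein of fat cells and macrophages, had 5.57, 5.12 and 5.28 at 0.35 mM, against -0.38, -1.31, -0.74 and -1.26 at 0 mM (6.24, adjusted p = 0.0113). The 0 mM signals of both genes lie below the median of their array and were not shown to be above background, so no fold is given for them. Acod1, which makes itaconate from an intermediate of the tricarboxylic acid cycle, had 7.94, 7.83 and 7.94 at 0.35 mM, against 3.61, 0.64, 2.91 and 0.65 at 0 mM (5.95, adjusted p = 0.0123). Its 0.35 mM arrays lay within 0.11 of each other, while replicates 1 and 3 of 0 mM were far above replicates 2 and 4. S100a8, a calcium-binding alarmin of myeloid cells, had 4.10, 4.18 and 3.90 at 0.35 mM, against 0.34, -0.55, -0.03 and -0.19 at 0 mM (4.17, adjusted p = 0.014). Of the 30, 5 are in none of the gene lists used below. They are Ifi209, a DNA-sensing family member of the interferon-induced p200 group (4.80), Pdpn, the membrane mucin podoplanin (3.95), Upp1, which cleaves uridine (3.65), Hao1, a peroxisomal hydroxyacid oxidase known from liver (3.48), and Afp, alpha-fetoprotein (3.16). All 30 rises kept their call in the 7 arrays alone and on the 11 arrays of low spike level, and 21, 4 and 25 kept it without replicate 1, 2 and 3 of 0.35 mM and 28, 16, 29 and 19 without replicate 1, 2, 3 and 4 of 0 mM. The 26 lost without replicate 2 of 0.35 mM then had adjusted p of 0.0514 to 0.118, and the differences of the 30 were 3.11 to 7.34 without that array, against 3.02 to 7.31 with it.

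**Figure D1:**
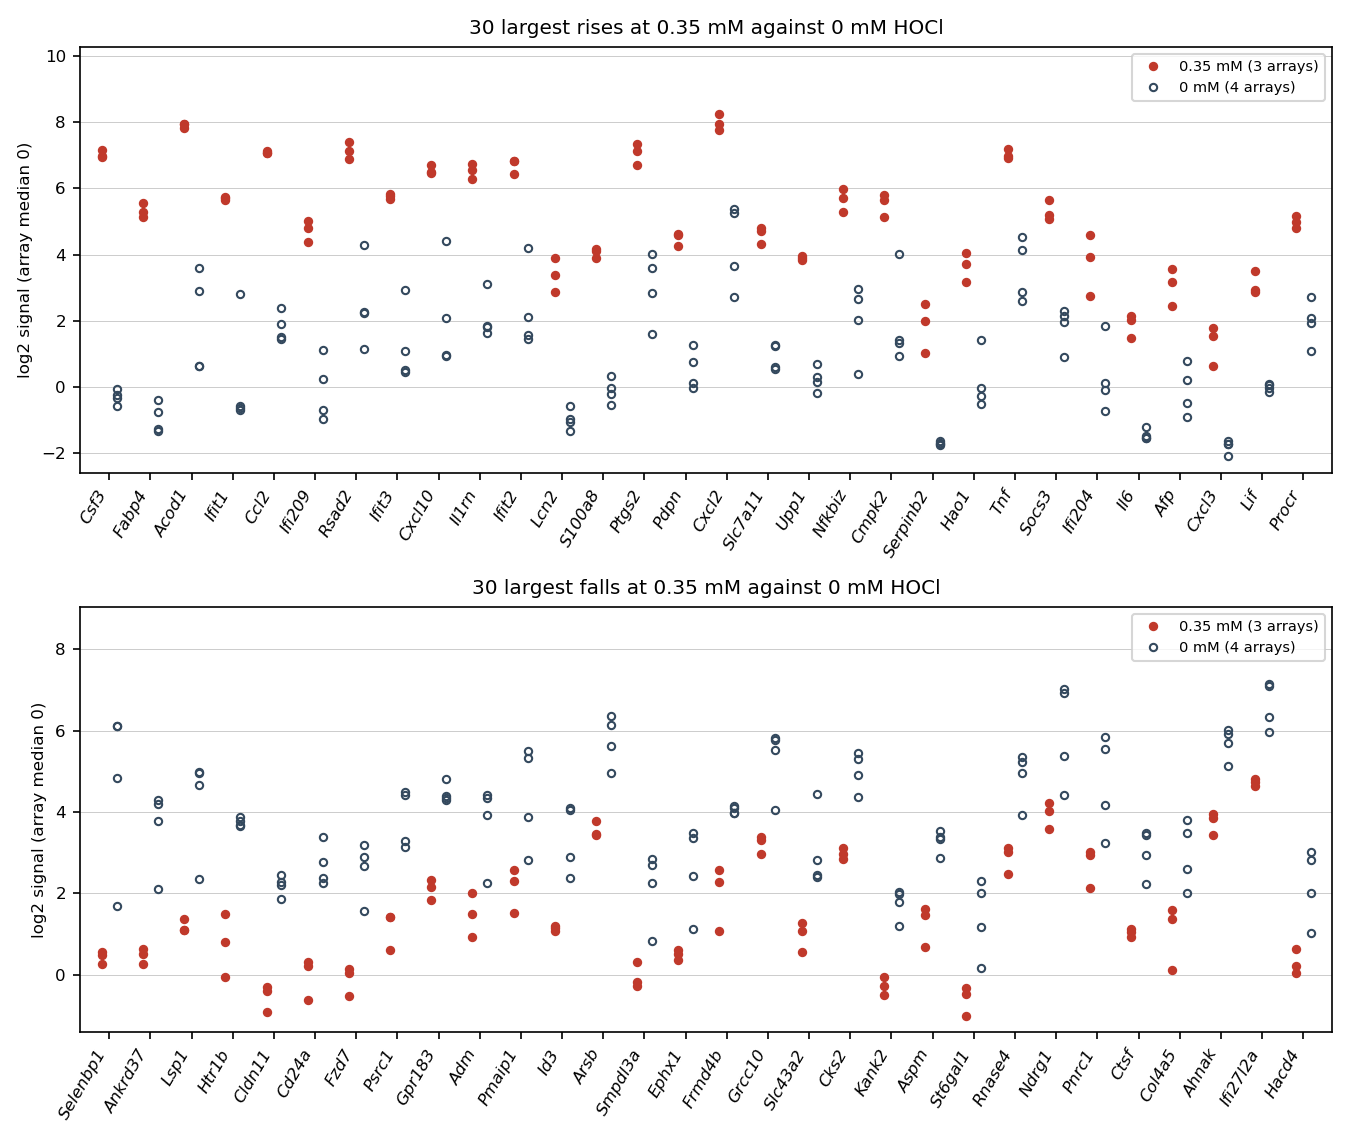
Log2 signal (array median 0) on every array for the 30 genes with the largest rises (top) and the 30 with the largest falls (bottom) among genes called with separate groups. Filled red points are the 3 arrays of 0.35 mM and open points the 4 arrays of 0 mM. The 3 points of 0.35 mM lie close together for most genes, as for Csf3 at 6.94 to 7.17, while the 0 mM points spread more, as for Selenbp1 at 1.70 to 6.12.

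**Figure D2:**
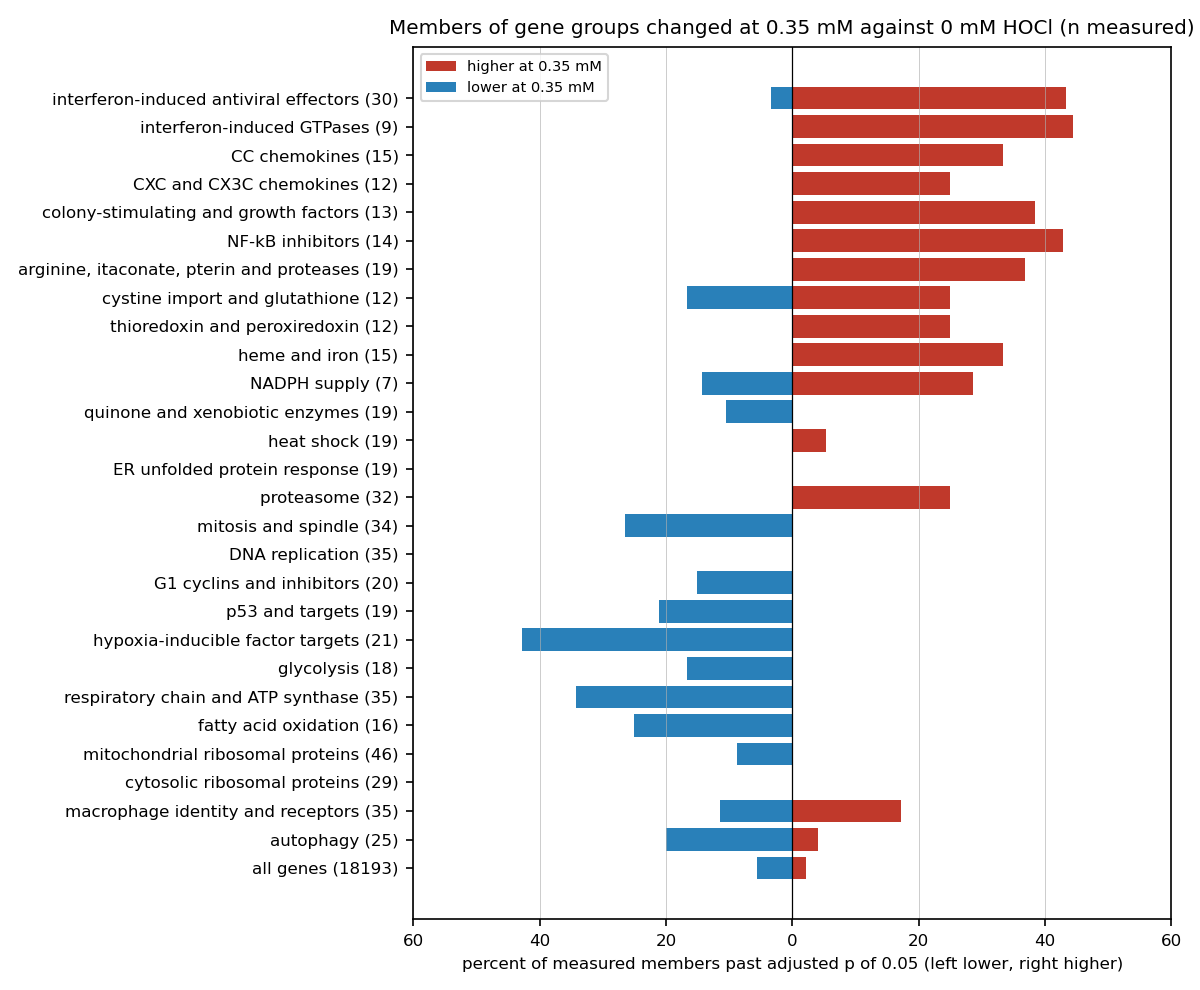
Share of the measured members of each gene group that passed an adjusted p of 0.05, in percent, with members higher at 0.35 mM to the right and members lower to the left. Group sizes are in parentheses, and the bottom bar gives all 18193 genes, 2.12% higher and 5.56% lower.

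Most interferon-stimulated genes lay higher at 0.35 mM, and the highest rises were among antiviral effectors. Of the 47 measured, 19 rose and 1 fell, the median difference was 1.76 against 0.03 over all genes, and in 39 of them all 0.35 mM arrays lay above all 0 mM arrays. Over all genes 2.12% rose, 5.56% fell and 6.76% lay above in this way. The promoters of Ifit1 and Rsad2, the members with the largest rises whose promoter holds a match, are shown for the interferon-stimulated response element (ISRE) of interferon-induced promoters. It was searched as GAAA, any 2 bases, GAAA on both strands of the 250 bases before the start of transcription, and capitals mark each match (TTTC, any 2 bases, TTTC where it lies on the other strand). They are from RefSeq on mouse build GRCm38.p6, written 5′ to 3′ on the strand of the gene, Ifit1 at chr19:34640639-34640888 on the plus strand and Rsad2 at chr12:26456453-26456702 on the minus strand.
Ifit1: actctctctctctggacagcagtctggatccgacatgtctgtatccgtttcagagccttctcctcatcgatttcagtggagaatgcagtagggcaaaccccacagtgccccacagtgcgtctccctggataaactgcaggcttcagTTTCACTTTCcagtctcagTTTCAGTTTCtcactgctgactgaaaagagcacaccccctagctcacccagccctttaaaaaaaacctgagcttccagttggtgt
Rsad2: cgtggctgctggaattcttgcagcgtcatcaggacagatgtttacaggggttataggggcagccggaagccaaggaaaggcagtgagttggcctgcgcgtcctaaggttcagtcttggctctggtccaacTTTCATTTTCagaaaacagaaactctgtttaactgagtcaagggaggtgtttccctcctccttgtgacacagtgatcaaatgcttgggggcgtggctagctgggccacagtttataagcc
The Ifit1 promoter holds 2 matches, whose first bases lie 104 and 85 bases before the start, and that of Rsad2 holds 1, at 120 bases, together with a separate ARE core as defined further on. Of the 34 measured interferon-stimulated genes with a promoter in the table, 15 hold a match (44.1%), against 978 of all 32851 promoters (2.98%) and 453 of the 14452 measured genes with a promoter (3.13%). Among the called members it was 6 of 14 (42.9%), and among all genes that rose at least 2-fold 19 of 147 (12.9%). A match describes letters in a window and is not a binding site.

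Among the antiviral effectors, Ifit1, which binds RNA lacking a host cap, had 5.70, 5.65 and 5.75 at 0.35 mM, against -0.68, -0.64, 2.81 and -0.58 at 0 mM. The 0.35 mM arrays lay within 0.10 of each other, and replicate 3 of 0 mM alone was high among its group; the difference was 5.47 ± 1.22 (adjusted p = 0.0145). Rsad2, or viperin, which makes a chain-terminating nucleotide, had 7.14, 6.89 and 7.39 at 0.35 mM, against 1.14, 2.26, 4.30 and 2.24 at 0 mM (4.65 ± 1.04, adjusted p = 0.0147), and all 3 of its probe sets were called. Cmpk2, the mitochondrial nucleotide kinase encoded beside it, rose by 3.60. Again replicate 3 of 0 mM was the highest of its group for both genes. It was so in 43 of the 47 interferon-stimulated genes, and without it 37 genes of the interferon lists were called higher and 4 lower. Ifit2 and Ifit3 rose by 4.36 and 4.50, the GTPases Mx1 and Mx2, which trap viral ribonucleoproteins, by 2.44 and 2.23, Zbp1, a sensor of Z-form nucleic acid, by 2.60, and Oasl1 by 2.24. Usp18, which removes ISG15 from proteins and damps the interferon receptor, had 7.11, 6.91 and 7.21 at 0.35 mM, against 4.27, 4.15, 6.26 and 4.04 at 0 mM (2.40, adjusted p = 0.0471). Herc6, the mouse ligase for ISG15, and the growth regulator Slfn1 rose as well: Herc6 had 3.39, 3.75 and 3.43 at 0.35 mM, against 1.47, 1.39, 2.24 and 1.68 at 0 mM (1.83, adjusted p = 0.00589), and Slfn1 rose by 1.49. Ifi204, a cytosolic DNA sensor, rose by 3.46. The 1 member that fell was Ifi27l2a, a mitochondrial interferon-induced protein, with 4.81, 4.73 and 4.63 at 0.35 mM, against 6.34, 7.08, 5.98 and 7.14 at 0 mM (-1.91 ± 0.47, adjusted p = 0.0208). Its groups did not overlap either.

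The interferon-induced GTPases act on vacuoles that hold pathogens. Gbp7 had 3.83, 3.36 and 4.10 at 0.35 mM, against 0.53, 1.14, 1.32 and 0.79 at 0 mM (2.82 ± 0.69, adjusted p = 0.021), with no overlap. Gbp3, Ifi47 and Gbp2 rose by 2.50, 1.90 and 1.05, so 4 of 9 were called, where 2.12% of all genes were called higher and 5.56% lower. Irgm1 and Igtp, at 2.42 and 2.05, narrowly were not called (adjusted p = 0.059 and 0.0518). Of 8 cytosolic RNA sensors and their regulators, Ifih1 (MDA5) rose by 2.37 and Ddx58 (RIG-I) by 2.14, and Ddx60 differed by 2.38 without a call (adjusted p = 0.0613).

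Of 20 genes of interferon signalling 2 rose and 2 fell, where 7.67% of all genes were called in either direction. Of the 4 measured ligands only Ifnb1, interferon beta, was called, with 0.94, 1.19 and 1.12 at 0.35 mM, against 0.02, -0.35, -0.32 and -0.36 at 0 mM. Its level was low on all arrays and the groups did not overlap (1.34 ± 0.28, adjusted p = 0.0108). Of 7 receptors and kinases 2 were called, both lower. Ifnar2, a chain of the receptor for type I interferons, had 3.56, 3.27 and 3.43 at 0.35 mM, against 4.48, 5.16, 4.08 and 5.06 at 0 mM (-1.27 ± 0.29, adjusted p = 0.0145), and Ifngr1, the binding chain for interferon gamma, fell by 0.69 (adjusted p = 0.0177). Stat2, a transcription factor that acts downstream of Ifnar2, had 2.68, 2.43 and 2.49 at 0.35 mM, against 1.11, 0.39, 1.16 and 0.45 at 0 mM (1.76 ± 0.46, adjusted p = 0.0292), the 1 of 9 transcription factors called. Irf7, the factor that raises interferon alpha genes, had 5.84, 5.54 and 4.83 at 0.35 mM, against 4.30, 5.11, 5.02 and 5.08 at 0 mM. Its groups overlapped (0.53, adjusted p = 0.432). Of the 24 interferon genes called in all, those that kept the call numbered 10, 2 and 13 without replicate 1, 2 and 3 of 0.35 mM and 18, 6, 24 and 8 without replicate 1, 2, 3 and 4 of 0 mM. Herc6 and Slfn1 were the 2 left without replicate 2 of 0.35 mM, where the other 22 had adjusted p of 0.0553 to 0.123. Probe sets of near-identical family members, such as Ifi204 and Ifi209 or the Slfn genes, may share signal, which was not tested.

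**Figure D3:**
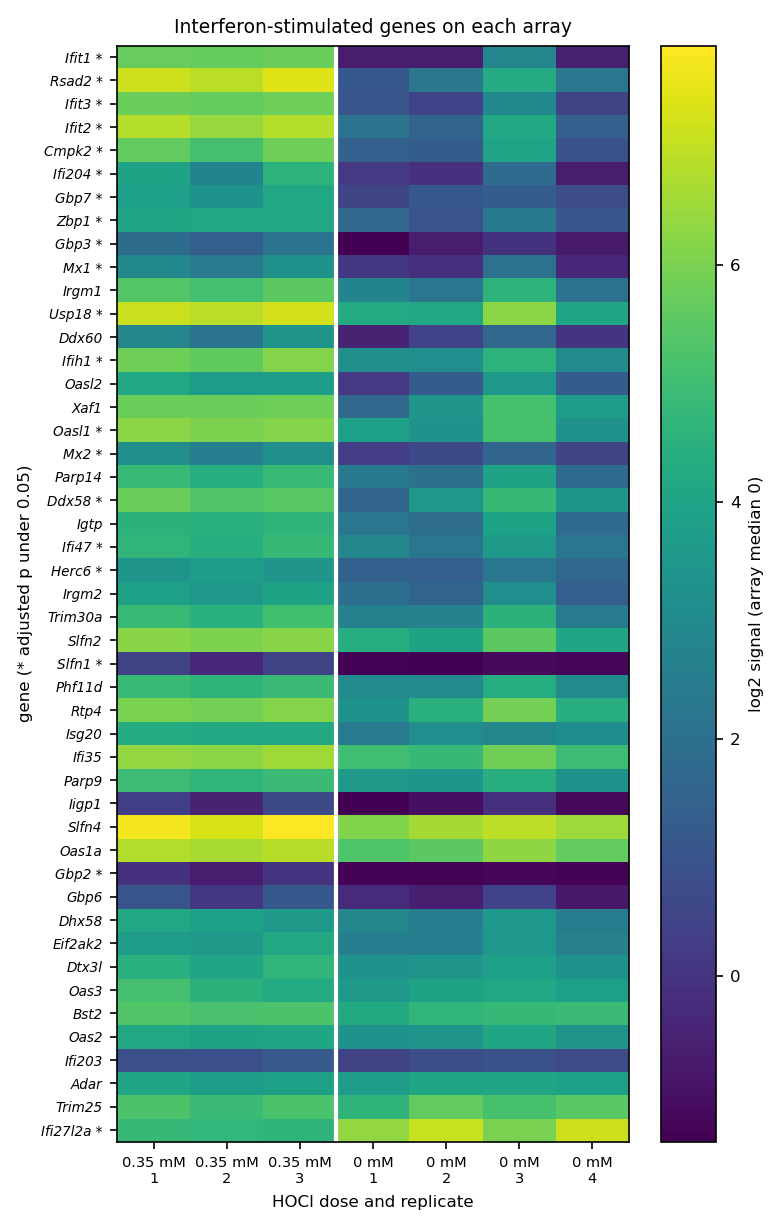
Log2 signal (array median 0, colour) of the 47 measured interferon-stimulated genes on the 3 arrays of 0.35 mM (left of the white line) and the 4 arrays of 0 mM (right), ordered by their difference, with an asterisk at an adjusted p under 0.05. The left block is brighter in nearly all rows, as for Ifit1 at 5.65 to 5.75 at 0.35 mM against -0.68 to 2.81 at 0 mM, and replicate 3 is the brightest 0 mM column in 43 of the 47 rows.

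Chemokines, which draw leukocytes along gradients, were raised in part. Of 37 measured ligands and receptors 10 rose and 1 fell, with a median of 0.20, beside 2.12% higher and 5.56% lower of all genes. The called ligands attract monocytes (Ccl2, Ccl7 and Ccl12), T cells and monocytes (Ccl3, Ccl5 and Cxcl10) and neutrophils (Cxcl2 and Cxcl3). The promoters of Cxcl2 and of the interleukin 1 antagonist Il1rn are shown for the kappa-B site of NF-kB, searched as GGG, any 2 bases, TTTCC on both strands of the same window and in capitals, from chr5:90903649-90903898 and chr2:24345121-24345370, both on the plus strand. They were picked as the largest rises in the chemokine, cytokine, NF-kB and inflammatory enzyme lists whose promoter holds a match.
Cxcl2: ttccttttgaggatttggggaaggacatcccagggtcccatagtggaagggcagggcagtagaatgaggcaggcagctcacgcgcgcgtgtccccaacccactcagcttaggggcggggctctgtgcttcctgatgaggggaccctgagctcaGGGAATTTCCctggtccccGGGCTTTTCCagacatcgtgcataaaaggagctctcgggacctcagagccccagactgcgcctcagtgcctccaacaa
Il1rn: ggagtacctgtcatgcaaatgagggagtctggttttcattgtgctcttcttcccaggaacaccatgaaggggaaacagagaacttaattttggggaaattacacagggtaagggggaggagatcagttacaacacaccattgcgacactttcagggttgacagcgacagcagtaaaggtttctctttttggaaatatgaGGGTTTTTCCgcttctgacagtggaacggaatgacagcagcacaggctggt
The matches begin 97 and 78 bases before the start in Cxcl2 and 51 bases before it in Il1rn. Of 28 measured chemokine genes with a promoter 6 hold a match (21.4%), against 464 of all 32851 promoters (1.41%) and 244 of the 14452 measured genes with a promoter (1.69%). Among those called higher it was 2 of 7 chemokine genes (28.6%) and 2 of 9 cytokine genes (22.2%). Among all genes changed at least 2-fold it was 7 of 147 higher (4.76%) and 10 of 300 lower (3.33%).

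Ccl2 had 7.06, 7.12 and 7.07 at 0.35 mM, against 2.40, 1.44, 1.90 and 1.52 at 0 mM. The 0.35 mM arrays were within 0.06 of each other and the groups far apart, a 38.6-fold difference (5.27 ± 1.16, adjusted p = 0.0135). Ccl7 and Ccl12, encoded beside it, rose by 2.34 and 0.86, Ccl12 from a level near the bottom of the arrays. Ccl3 was already bright without HOCl and had 8.28, 8.16 and 8.50 at 0.35 mM, against 5.97, 7.25, 6.04 and 7.28 at 0 mM (1.68, adjusted p = 0.0295). Ccl5 rose by 1.86. Ccl4, of the same family, differed by 2.27 and Ccl9 by 0.88 without a call (adjusted p = 0.0523 and 0.0531). Cxcl10, induced by interferons and NF-kB, had 6.71, 6.50 and 6.46 at 0.35 mM, against 2.08, 0.98, 4.42 and 0.93 at 0 mM (4.45 ± 1.02, adjusted p = 0.016), with replicate 3 of 0 mM the highest of its group. Cxcl2 had 7.94, 7.75 and 8.25 at 0.35 mM, against 3.66, 5.38, 2.73 and 5.27 at 0 mM (3.72 ± 1.07, adjusted p = 0.0433). Here the 0 mM arrays were split, with replicates 2 and 4 high and replicate 3 lowest. Cxcl2 lost its call whichever single array was left out (limma adjusted p of 0.0656 to 0.118). Cxcl3 rose by 3.11. Among receptors, Ccr1 and the non-signalling chemerin receptor Ccrl2 rose by 1.80 and 1.70, and Cx3cr1, the fractalkine receptor, fell, with 1.91, 1.87 and 2.36 at 0.35 mM, against 4.19, 3.44, 4.08 and 3.03 at 0 mM (-1.64 ± 0.38, adjusted p = 0.0167). Of the 11 calls, those kept numbered 5, 1 and 6 without replicate 1, 2 and 3 of 0.35 mM and 6, 6, 8 and 6 without replicate 1, 2, 3 and 4 of 0 mM. The 1 left without replicate 2 of 0.35 mM was Ccl7, and the others then had adjusted p of 0.0507 to 0.131.

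Of 52 measured cytokine genes 11 rose and 1 fell (median 0.21), beside 2.12% higher and 5.56% lower of all genes. Among the 11 was Csf3 with the largest rise of all genes, and 5 of the 11 were colony-stimulating and growth factors. Beside Csf3, these were Lif, leukemia inhibitory factor, with 3.52, 2.92 and 2.86 at 0.35 mM, against 0.10, -0.03, -0.14 and 0.06 at 0 mM (3.10 ± 0.62, adjusted p = 0.0091), Csf2, which encodes granulocyte-macrophage colony-stimulating factor (2.39), Pdgfb, a chain of platelet-derived growth factor (1.17), and Vegfc, a lymphatic growth factor (1.15). Il6 had 2.14, 1.49 and 2.01 at 0.35 mM, against -1.48, -1.54, -1.19 and -1.55 at 0 mM (3.32 ± 0.75, adjusted p = 0.0153). The 0 mM values are close to the bottom of the scale. Il1b, the other called interleukin, had 2.31, 2.19 and 2.19 at 0.35 mM, against -0.01, -0.08, 0.19 and -0.14 at 0 mM (2.24 ± 0.60, adjusted p = 0.0318). Tnf had 7.18, 6.97 and 6.90 at 0.35 mM, against 4.14, 2.60, 4.54 and 2.87 at 0 mM (3.48 ± 0.75, adjusted p = 0.0123), without overlap. Il1rn, whose product blocks the interleukin 1 receptor, had 6.54, 6.28 and 6.73 at 0.35 mM, against 3.12, 1.85, 1.83 and 1.63 at 0 mM (4.41 ± 1.01, adjusted p = 0.016), with replicate 1 of 0 mM the highest of its group. Of the receptors, Tnfrsf1b (TNF receptor 2) rose by 1.94 and Fas, a death receptor, by 1.04, and Il6ra, the interleukin 6 receptor, fell, with 1.22, 0.75 and 1.23 at 0.35 mM, against 2.13, 1.98, 1.93 and 2.10 at 0 mM (-0.97 ± 0.19, adjusted p = 0.0091). Of the 12 calls, those kept numbered 7, 1 and 9 without replicate 1, 2 and 3 of 0.35 mM and 11, 6, 12 and 7 without replicate 1, 2, 3 and 4 of 0 mM. Fas alone was left without replicate 2 of 0.35 mM, and the others had adjusted p of 0.0529 to 0.103.

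Of 7 genes of the NF-kB pathway that rose, 6 are on its list of inhibitors. That list also holds nuclear IkB proteins such as Nfkbiz, which acts with NF-kB on some genes, so the 6 are not all plain inhibitors. Of 14 measured inhibitors 6 rose, of 12 kinases and adaptors 1, and of 4 subunits 0 by limma, with 2 of the 4 at an unadjusted p under 0.05 and 0 called on the quantile-normalized values. Beside these counts, 2.12% of all genes were called higher and 5.56% lower. Nfkbiz, a nuclear IkB protein that acts with NF-kB on selected genes such as Lcn2 and Il6, had 5.69, 5.30 and 5.96 at 0.35 mM, against 0.39, 2.97, 2.02 and 2.65 at 0 mM (3.64 ± 0.86, adjusted p = 0.018). Replicate 1 of 0 mM was far below its group. Nfkbid, another nuclear IkB protein, had 5.08, 4.83 and 4.76 at 0.35 mM, against 3.41, 2.83, 3.68 and 2.75 at 0 mM (1.72, adjusted p = 0.0177). Zc3h12a, or regnase 1, which cuts cytokine mRNA, rose by 1.71, Tnip1, which binds the deubiquitinase A20, by 1.50, the ubiquitin ligase Rnf19b by 1.18, and Nfkbia (IkB alpha), already bright, by 0.60. Ikbke, a kinase of the interferon and NF-kB routes, had 3.36, 2.79 and 2.94 at 0.35 mM, against 0.43, 1.55, 1.99 and 1.38 at 0 mM (1.70 ± 0.41, adjusted p = 0.0204). Of the subunits, Rela had 3.50, 3.19 and 3.09 at 0.35 mM, against 3.19, 3.61, 3.47 and 3.52 at 0 mM. Its groups overlapped (-0.19, adjusted p = 0.471), while Rel was higher on every 0.35 mM array without a call (1.64, adjusted p = 0.0804).

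Of 39 feedback genes 2 rose and 3 fell, and of 28 immediate early genes 1 rose and 2 fell. Of all genes 2.12% were called higher and 5.56% lower. Of 29 measured genes of Toll-like and NOD-like receptors 3 rose and none fell: Tlr3, a receptor for double-stranded RNA, by 2.11, Cd14, the lipopolysaccharide co-receptor, by 0.66, and Casp1, the inflammasome protease, by 0.77; Nlrp3 differed by 0.83 (adjusted p = 0.0979). Socs3, which blocks signals of the interleukin 6 receptor family, had 5.20, 5.07 and 5.66 at 0.35 mM, against 2.29, 2.16, 0.90 and 1.97 at 0 mM. The groups did not overlap (3.48 ± 0.73, adjusted p = 0.011). Socs5 and Socs4, of the same family, fell, by 0.94 and 0.75, and Socs4 overlapped between groups, with 0.90 on replicate 2 of 0.35 mM against 1.79 and 2.18 on replicates 1 and 3; without replicate 2 the difference was -0.39. Ier3, an early survival gene, rose by 1.53, and Nfil3, a basic leucine zipper repressor, fell by 0.95 with overlap. Of the immediate early genes Myc rose, with 0.90, 0.14 and 1.50 at 0.35 mM, against -0.66, -0.41, -0.74 and -0.48 at 0 mM (1.42, adjusted p = 0.0362). The factors Klf2 and Nr4a1 fell, each by 1.74 (adjusted p = 0.0325 and 0.0433), and Nr4a1 had 1.85, 1.42 and 1.88 at 0.35 mM, against 2.20, 4.91, 1.95 and 4.78 at 0 mM, so that replicates 1 and 3 of 0 mM stood close to the 0.35 mM arrays. The uncalled Fosl1, Gadd45a, Dusp6 and Rgs16 differed by 1.02, 1.22, 1.31 and 1.75 (adjusted p = 0.107, 0.0888, 0.11 and 0.068). Of the 18 calls of NF-kB, sensors, feedback and early genes, those kept numbered 4, 0 and 7 without replicate 1, 2 and 3 of 0.35 mM and 12, 3, 16 and 3 without replicate 1, 2, 3 and 4 of 0 mM, and without replicate 2 of 0.35 mM, which left 0 calls by limma, the 18 had adjusted p of 0.0553 to 0.32.

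Enzymes and proteases of inflammation rose in 10 of 33 measured genes and fell in 2 (median 0.31), beside 2.12% higher and 5.56% lower of all genes. Ptgs2, cyclooxygenase 2, the inducible step of prostaglandin synthesis, had 7.11, 6.70 and 7.33 at 0.35 mM, against 2.84, 4.01, 1.59 and 3.61 at 0 mM (4.03 ± 0.76, adjusted p = 0.00745). The 0 mM arrays spread over 2.42 units and stayed below all 0.35 mM arrays. Ptges, the prostaglandin E synthase that works with Ptgs2, and Ptgir, the prostacyclin receptor, rose by 1.01 and 1.48, while the leukotriene enzymes Alox5 and Lta4h fell by 1.02 and 0.42 (adjusted p = 0.0306 and 0.0494). Alox5 had 2.90, 2.52 and 2.80 at 0.35 mM, against 3.81, 4.15, 2.91 and 4.17 at 0 mM. Replicate 3 of 0 mM was the lowest of its group, just above the highest 0.35 mM array. Lcn2, which binds bacterial iron carriers, had 3.89, 3.39 and 2.86 at 0.35 mM, against -1.04, -1.31, -0.56 and -0.97 at 0 mM (4.35 ± 0.82, adjusted p = 0.00745). Nos2, the inducible nitric oxide synthase, had 2.57, 1.93 and 1.59 at 0.35 mM, against 0.12, 0.45, -0.08 and 0.36 at 0 mM (1.82 ± 0.39, adjusted p = 0.0116), with separate groups. Of the genes that regulate clotting and matrix, Serpinb2, the plasminogen activator inhibitor of monocytes, rose by 3.53, Procr, the receptor of protein C, by 3.02, Mmp9, a gelatinase, by 2.81, and Plaur, the urokinase receptor, by 2.25. Plaur had 5.46, 5.42 and 5.53 at 0.35 mM, against 3.29, 3.11, 3.19 and 3.28 at 0 mM, within 0.11 of each other at 0.35 mM and within 0.18 at 0 mM. Of the 12 calls, those kept numbered 7, 3 and 9 without replicate 1, 2 and 3 of 0.35 mM and 10, 7, 11 and 7 without replicate 1, 2, 3 and 4 of 0 mM, and without replicate 2 of 0.35 mM Procr, Ptgir and Ptgs2 were left, with adjusted p of 0.0514 to 0.205 for the others.

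Of 85 measured antioxidant genes 15 rose and 5 fell (median 0.12), beside 2.12% higher and 5.56% lower of all genes, so that falls were about as frequent as over all genes. The promoters of Gclm and Txnrd1, members that rose and whose promoter holds a match, are shown for the antioxidant response element (ARE) that NRF2 binds, searched by its core, TGAC, any 3 bases, GC, on both strands and set in capitals (GC, any 3 bases, GTCA where it lies on the other strand), from chr3:122245307-122245556 and chr10:82858956-82859205, both on the plus strand.
Gclm: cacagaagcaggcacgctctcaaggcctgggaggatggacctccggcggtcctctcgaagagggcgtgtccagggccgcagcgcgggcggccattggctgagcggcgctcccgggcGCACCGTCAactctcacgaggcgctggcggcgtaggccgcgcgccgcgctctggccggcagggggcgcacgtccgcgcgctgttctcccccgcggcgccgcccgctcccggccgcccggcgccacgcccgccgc
Txnrd1: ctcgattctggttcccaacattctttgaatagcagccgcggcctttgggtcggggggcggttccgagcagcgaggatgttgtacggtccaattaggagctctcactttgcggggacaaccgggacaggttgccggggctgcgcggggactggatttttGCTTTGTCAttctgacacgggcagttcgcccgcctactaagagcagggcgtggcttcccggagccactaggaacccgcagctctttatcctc
Each holds 1 match, 134 bases before the start in Gclm and 92 in Txnrd1, and none of the matches shown overlaps another motif searched. Of the list, 12 of 70 antioxidant genes with a promoter hold it (17.1%) and 2 of the 12 among those called higher, against 3338 of all 32851 promoters (10.2%), 1944 of the 14452 measured genes with a promoter (13.5%) and 44 of 303 genes called higher (14.5%). The share in the list is near these.

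Of 12 genes of cystine import and glutathione 3 rose and 2 fell, beside 2.12% higher and 5.56% lower of all genes. Slc7a11, the cystine-glutamate exchanger, had 4.70, 4.33 and 4.80 at 0.35 mM, against 0.56, 1.24, 0.60 and 1.27 at 0 mM. The groups lay far apart (3.69 ± 0.49, adjusted p = 0.00235), a 12.9-fold difference. Gclm, the modifier subunit of glutamate-cysteine ligase, had 5.60, 5.43 and 5.25 at 0.35 mM, against 3.79, 3.08, 3.64 and 2.81 at 0 mM (2.10 ± 0.35, adjusted p = 0.005). Gclc, the catalytic subunit, had 3.14, 2.55 and 3.45 at 0.35 mM, against 3.88, 3.53, 3.36 and 3.43 at 0 mM, with overlap (-0.50, adjusted p = 0.349). Chac1, which degrades glutathione, rose by 1.70, and the selenium-dependent peroxidases Gpx1 and Gpx4 fell, Gpx1 with 5.88, 5.77 and 5.86 at 0.35 mM, against 6.70, 6.56, 6.79 and 6.58 at 0 mM (-0.82 ± 0.15, adjusted p = 0.00669) and Gpx4 by 0.90 (adjusted p = 0.00743). The Gpx1 values were within 0.11 of each other at 0.35 mM and within 0.23 at 0 mM. Glutathione reductase, Gsr, differed by 0.71 without a call (adjusted p = 0.139).

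Of 12 thioredoxin and peroxiredoxin genes 3 rose, where 2.12% of all genes were called higher and 5.56% lower. Glrx, glutaredoxin 1, had 6.24, 6.25 and 6.72 at 0.35 mM, against 4.23, 3.79, 3.21 and 4.03 at 0 mM (2.59 ± 0.58, adjusted p = 0.0148), and Srxn1, which repairs overoxidized peroxiredoxins, had 4.28, 3.86 and 3.82 at 0.35 mM, against 2.70, 1.94, 2.20 and 1.78 at 0 mM (1.83 ± 0.39, adjusted p = 0.0123), with all 4 of its probe sets called. Txnrd1, thioredoxin reductase 1, rose by 0.78. Txnip, an inhibitor of thioredoxin, differed by -0.80 (adjusted p = 0.0517). Hmox1, heme oxygenase 1, had 6.59, 6.34 and 6.12 at 0.35 mM, against 4.18, 4.24, 3.42 and 4.38 at 0 mM. Its difference of 2.29 ± 0.20 had the lowest adjusted p of the 217 genes described as changed, 1.78e-05, and 0.000354 without replicate 2 of 0.35 mM. Of 15 genes of heme and iron 5 rose and none fell. Beside Hmox1 they were the transferrin receptor Tfrc (2.23), the divalent metal transporters Slc11a1 (NRAMP1, of the phagosome, 1.92) and Slc11a2 (1.24), and the exporter ferroportin, Slc40a1 (1.25). Tfrc had 6.51, 6.18 and 6.62 at 0.35 mM, against 4.49, 3.65, 5.28 and 3.40 at 0 mM, with replicates 1 and 3 of 0 mM above replicates 2 and 4. Of 7 enzymes that supply NADPH, Me1 and Pgd rose by 1.23 and 0.83 and the mitochondrial Idh2 fell by 0.84 (adjusted p = 0.0294). Cat, catalase, rose by 1.02 and Sqstm1, which binds KEAP1 and autophagic cargo, by 1.42. None of 19 quinone and xenobiotic enzymes rose and 2 fell, beside 2.12% higher and 5.56% lower of all genes. With so few members this does not set the group apart. Ephx1, microsomal epoxide hydrolase, had 0.59, 0.35 and 0.51 at 0.35 mM, against 2.42, 3.37, 1.13 and 3.48 at 0 mM (-2.11 ± 0.55, adjusted p = 0.0273), and Gstm1, a glutathione transferase, fell by 1.01. Nqo1, often read as a marker of NRF2 activity, had 0.04, -0.62 and -0.09 at 0.35 mM, against -0.44, -0.20, -0.44 and -0.08 at 0 mM, low on all arrays with overlap (0.07, adjusted p = 0.94), and Akr1b8, an aldo-keto reductase, differed by 0.89 (adjusted p = 0.0578). Nfe2l2 itself, which encodes NRF2, had 4.70, 4.36 and 5.01 at 0.35 mM, against 2.16, 4.97, 4.94 and 4.75 at 0 mM. Replicate 1 of 0 mM lay far below all others (0.48, adjusted p = 0.535), and the same array was lowest for Keap1, whose difference was 1.58 (adjusted p = 0.0541). Of the 20 calls, those kept numbered 12, 7 and 12 without replicate 1, 2 and 3 of 0.35 mM and 16, 11, 19 and 11 without replicate 1, 2, 3 and 4 of 0 mM. Cat, Gclm, Gpx1, Hmox1, Me1, Slc11a1 and Slc7a11 were called without replicate 2 of 0.35 mM, and the other 13 had adjusted p of 0.0523 to 0.147.

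Of 32 proteasome genes 8 rose and none fell (median 0.36), and in 14 all 0.35 mM arrays lay above all 0 mM arrays. Over all genes 2.12% rose, 5.56% fell and 6.76% lay above in this way. Of 12 genes of the immunoproteasome and antigen processing 0 were called by limma (median 0.20), 4 had an unadjusted p under 0.05, and 1 was called higher and 1 lower on the quantile-normalized values. Psmd11, a lid subunit of the regulatory particle, had 6.57, 6.36 and 6.77 at 0.35 mM, against 5.94, 6.01, 6.00 and 5.99 at 0 mM (0.58 ± 0.12, adjusted p = 0.0101). Psmd1, Psmd5, Psmd7 and Psmc1 of the regulatory particle or its assembly rose by 0.63 to 1.01, and Psma3, Psma5 and Psma7 of the core particle by 0.35 to 0.49; without replicate 3 of 0.35 mM Psma7 differed by 0.31, against 0.47 with it. Of 19 heat shock genes 1 rose, Hsp90aa1, the inducible cytosolic HSP90, with 7.10, 6.96 and 7.50 at 0.35 mM, against 6.21, 5.99, 6.84 and 5.97 at 0 mM (0.93 ± 0.19, adjusted p = 0.00963). Hspa1b, the inducible HSP70, had 2.19, 1.17 and 2.70 at 0.35 mM, against 3.83, 3.12, 1.73 and 3.00 at 0 mM. The groups overlapped and the difference was -0.90 (adjusted p = 0.381). By limma 0 of 19 genes of the unfolded protein response of the endoplasmic reticulum were called, though 6 were higher on every 0.35 mM array, 10 had an unadjusted p under 0.05 and 1 was called on the quantile-normalized values. Hspa5 (BiP), Dnajc3 and Ddit3 (CHOP) differed by 0.47, 1.08 and 0.27 (adjusted p = 0.175, 0.0569 and 0.704). Of 24 genes listed as targets of ATF4, the factor of amino acid stress, Phgdh, the entry step of serine synthesis, fell by 0.72. No member of this list rose, but Slc7a11 and Chac1, which rose, were listed with the glutathione genes and not here. Cth, the last enzyme of cysteine synthesis, differed by 2.15 (adjusted p = 0.0901). Of 19 aminoacyl-tRNA synthetases Rars rose by 0.42 and Vars fell by 1.05. Of the 12 calls, those kept numbered 3, 2 and 3 without replicate 1, 2 and 3 of 0.35 mM and 8, 3, 12 and 2 without replicate 1, 2, 3 and 4 of 0 mM, with Hsp90aa1 and Psmd11 left and adjusted p of 0.0569 to 0.129 for the others without replicate 2 of 0.35 mM, and 0 of the 12 passed in the 7 arrays alone.

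Genes of mitosis lay lower at 0.35 mM. Of 34 measured, 9 fell and none rose, the median was -0.96, and 28 were below all 0 mM arrays on every 0.35 mM array. Over all genes 5.56% fell and 8.86% lay below in this way. Cenpa, the histone variant of centromeres, had 3.58, 3.43 and 3.57 at 0.35 mM, against 4.54, 5.49, 5.51 and 5.47 at 0 mM. Replicate 1 of 0 mM was the lowest of its group and still above the 0.35 mM arrays (-1.72 ± 0.35, adjusted p = 0.00983). Prc1, which bundles midzone microtubules, had 2.49, 2.12 and 2.45 at 0.35 mM, against 3.68, 4.27, 3.86 and 4.16 at 0 mM (-1.64 ± 0.37, adjusted p = 0.0147). Cdc20, the activator of the anaphase-promoting complex, and Ube2c, its ubiquitin-conjugating enzyme, fell by 1.31 and 1.20, the spindle proteins Nusap1, Hmmr and Kif20a by 1.63, 1.36 and 1.09, and Cdca8 and Aurka, of the chromosomal passenger complex and the centrosome, by 1.08 and 1.04. Cenpf, Mki67 and Tpx2 lay lower on every 0.35 mM array without a call, at -1.56, -1.17 and -0.96 (adjusted p = 0.051, 0.0874 and 0.0771). Replicate 3 of 0 mM was the highest of its group in 25 of the 34. The cell-cycle homology region TTTGAA, found in promoters of mitotic genes, stands in 11 of the 30 with a promoter (36.7%). It stands in 5252 of all 32851 promoters (16.0%) and 2035 of the 14452 measured genes with a promoter (14.1%). Interferon-stimulated genes, most of which lay higher, hold it in 11 of 34 (32.4%), and chemokine genes in 7 of 28. In the cytokine and antioxidant lists it was 6 of 38 (15.8%) and 11 of 70 (15.7%). Of all genes called lower 96 of 835 hold it (11.5%), so these letters are not particular to mitotic genes or to falls.

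Of 35 DNA replication genes 0 were called by limma (1 at an unadjusted p under 0.05, and 0 called on the quantile-normalized values), their median was 0.08, and Pcna, the sliding clamp, differed by 0.39 (adjusted p = 0.13). Of 20 regulators of the G1 phase, 3 fell, beside 5.56% lower of all genes. Id3, an inhibitor of basic helix-loop-helix factors, had 1.14, 1.08 and 1.18 at 0.35 mM, against 2.88, 4.11, 2.37 and 4.05 at 0 mM. Its 0.35 mM arrays lay within 0.11 of each other while the 0 mM arrays split into 2 pairs (-2.22 ± 0.37, adjusted p = 0.00545). The transcription factor E2f2 and the inhibitor Cdkn1b (p27) fell by 1.03 and 1.53 (adjusted p = 0.0102 and 0.0317), and Rb1 and Ccnd3 differed by -2.00 and -0.75 (adjusted p = 0.0551 and 0.0676). Of 19 genes of p53 and its targets 4 fell and none rose. Pmaip1 (NOXA), a BH3-only protein, had 2.31, 1.52 and 2.56 at 0.35 mM, against 3.87, 5.50, 2.81 and 5.33 at 0 mM (-2.25 ± 0.55, adjusted p = 0.0217), Zmat3 and the stress sensor Sesn1 fell by 1.84 and 1.46, and Trp53inp1 by 1.77 with overlap. Of 18 Bcl2 family members and caspases Casp2 and Casp6 fell by 0.69 and 0.80, and Mcl1 differed by -0.50 (adjusted p = 0.0689). Of the 18 calls of cell cycle and cell death, those kept numbered 11, 1 and 14 without replicate 1, 2 and 3 of 0.35 mM and 15, 7, 16 and 10 without replicate 1, 2, 3 and 4 of 0 mM. Id3 was left without replicate 2 of 0.35 mM, and the others had adjusted p of 0.0569 to 0.222.

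Most listed targets of hypoxia-inducible factor (HIF), which acts when oxygen is short, also lay lower. Of 21 measured, 9 fell and none rose, with a median of -0.87 and a range of -3.13 to 2.36. All 0.35 mM arrays lay below all 0 mM arrays in 9 of them and above in 1, which was not called. Over all genes 5.56% fell, and 8.86% lay below and 6.76% above in this way. Ankrd37, an ankyrin repeat protein and direct HIF target, had 0.50, 0.26 and 0.62 at 0.35 mM, against 3.78, 4.19, 2.11 and 4.31 at 0 mM (-3.13 ± 0.62, adjusted p = 0.0091). Replicate 3 of 0 mM was far below its group but above every 0.35 mM array, and it was the lowest 0 mM array in 15 of the 21 genes. Egln1, the prolyl hydroxylase that marks HIF for decay, had 2.21, 1.50 and 1.89 at 0.35 mM, against 3.62, 3.77, 2.73 and 3.61 at 0 mM (-1.57 ± 0.30, adjusted p = 0.00804). Ndrg1, Adm (adrenomedullin), Pdk1 (a kinase that closes pyruvate dehydrogenase), Slc2a3 (a glucose transporter), Mxi1, Car9 (carbonic anhydrase 9) and P4ha2 fell by 0.99 to 2.26. Adm had 1.50, 2.01 and 0.92 at 0.35 mM, against 3.93, 4.42, 2.25 and 4.35 at 0 mM, and P4ha2 overlapped between the groups. Of 18 genes of glycolysis Eno2, Pfkm and Pfkfb3 fell, by 2.92, 1.46 and 1.12. Eno2, a neuronal and hypoxia-induced enolase, had 1.19, -0.07 and 0.03 at 0.35 mM, against 3.20, 4.44, 1.19 and 4.38 at 0 mM. Replicate 1 of 0.35 mM and replicate 3 of 0 mM had the same value to 2 decimals (adjusted p = 0.0226). Hk3, the myeloid hexokinase, differed by 1.53 and Higd1a by -0.71, neither called (adjusted p = 0.0737 and 0.0711).

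Among mitochondrial genes the falls were small. Of 35 genes of the respiratory chain and ATP synthase 12 fell and none rose, with a median of -0.16, and in 14 all 0.35 mM arrays lay below all 0 mM arrays. Over all genes 5.56% fell and 8.86% lay below in this way. Ndufb9, of complex I, had 5.07, 5.03 and 4.94 at 0.35 mM, against 5.42, 5.42, 5.31 and 5.46 at 0 mM (-0.39 ± 0.07, adjusted p = 0.00743). The arrays were within 0.13 of each other at 0.35 mM and within 0.15 at 0 mM. Ndufa1, Ndufa10, Ndufb3, Ndufb5 and Ndufb8 of complex I, Uqcrfs1 of complex III, Cox4i1, Cox5b and Cox6c of complex IV, and Atp5c1 and Atp5d of the synthase fell by 0.26 to 0.57, and Ndufa1 overlapped. Cycs, cytochrome c, pointed the other way without a call (0.90, adjusted p = 0.069). Of 19 genes of the tricarboxylic acid cycle Cs (citrate synthase), Idh3b and Idh3g fell by 0.51 to 0.67. Of 16 genes of fatty acid oxidation Hadh, Etfb, Etfdh and Acadm fell by 0.65 to 1.14, and Hadh had 4.08, 3.86 and 4.40 at 0.35 mM, against 5.16, 5.46, 4.88 and 5.51 at 0 mM (-1.14 ± 0.25, adjusted p = 0.0123). Of 46 mitochondrial ribosomal proteins Mrps30, Mrps16, Mrpl4 and Mrpl9 fell by 0.33 to 0.47, with a list median of 0.06, and of 29 cytosolic ribosomal proteins 0 were called by limma, 5 had an unadjusted p under 0.05 and 2 were called on the quantile-normalized values (median -0.08). Of the 35 calls among HIF targets, glycolysis and mitochondrial genes, those kept numbered 23, 1 and 21 without replicate 1, 2 and 3 of 0.35 mM and 27, 10, 35 and 13 without replicate 1, 2, 3 and 4 of 0 mM, of which Ndufb9 was left without replicate 2 of 0.35 mM, with adjusted p of 0.0553 to 0.2 for the others. In the 7 arrays alone Ankrd37, Egln1, Hadh and Pfkm kept their call.

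Of 39 lipid genes 4 rose and 2 fell, beside 2.12% higher and 5.56% lower of all genes. Cd36, a scavenger receptor for oxidized lipoproteins, had 2.87, 2.51 and 3.00 at 0.35 mM, against 1.68, -0.12, -0.17 and -0.22 at 0 mM (2.50 ± 0.64, adjusted p = 0.0265). Replicate 1 of 0 mM was far above its group. Msr1, the scavenger receptor A, and Fabp5, a second fatty acid-binding protein, rose by 1.86 and 1.69, while Scarb1, the receptor for high-density lipoprotein, and Mvd of cholesterol synthesis fell by 0.90 and 0.93, and Lpl, lipoprotein lipase, differed by -0.72 (adjusted p = 0.0809). The C-type lectins Clec4d and Clec4e, sensors of mycobacterial glycolipid, rose; Clec4d had 7.37, 7.26 and 7.51 at 0.35 mM, against 6.56, 6.11, 6.35 and 6.13 at 0 mM (1.09 ± 0.19, adjusted p = 0.00589) and Clec4e rose by 1.54. The T-cell ligands Cd86 and Cd274 (PD-L1) rose by 1.56 and 1.26, Mpeg1, the pore-forming perforin-2, by 0.79 with overlap, and the protease Ctsl by 0.41. Gpr183, a receptor for oxysterols, fell, with 2.16, 1.83 and 2.34 at 0.35 mM, against 4.82, 4.35, 4.39 and 4.29 at 0 mM (-2.35 ± 0.45, adjusted p = 0.00788), and Trem2, a lipid receptor that signals through Tyrobp, with 3.21, 3.28 and 3.20 at 0.35 mM, against 5.27, 4.66, 4.94 and 4.86 at 0 mM (-1.70 ± 0.38, adjusted p = 0.0142). Adgre1, which encodes the antigen F4/80, fell by 1.29 and Fcgr3, an IgG receptor, by 1.06, both with overlap, replicate 3 of 0 mM being as low as the 0.35 mM arrays. Cfp (properdin of complement) rose by 0.83 and the zinc importer Slc39a4 by 0.53, and Mt2, metallothionein 2, differed by 0.43 (adjusted p = 0.0544). Of the 18 calls, those kept numbered 7, 1 and 8 without replicate 1, 2 and 3 of 0.35 mM and 12, 4, 16 and 5 without replicate 1, 2, 3 and 4 of 0 mM, with Clec4d left without replicate 2 of 0.35 mM and adjusted p of 0.0553 to 0.176 for the others.

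Of 25 autophagy genes 5 fell and Sqstm1 rose, beside 5.56% lower and 2.12% higher of all genes. Atg101 and Ulk1 of the initiating kinase complex, Atg14 and Pik3c3 of the lipid kinase complex and Map1lc3a, a protein of the autophagosome membrane, fell by 0.59 to 1.11, and Ulk1, Atg14 and Map1lc3a overlapped between the groups. Atg14 had 0.65, -0.37 and 0.67 at 0.35 mM, against 1.21, 1.67, 0.56 and 1.58 at 0 mM, where replicate 2 of 0.35 mM alone lay below all others. Without that array Atg14 differed by -0.59 and Pik3c3 by -0.35, against -0.94 and -0.63 with it. Of 10 histone genes H2az2 and H3c4 fell by 1.86 and 0.94, and the linker histone H1f2 differed by -1.31 (adjusted p = 0.0825). Of 30 splicing genes Srsf10 rose by 1.23, with overlap. Kdr, which encodes the VEGF receptor 2 and is a marker of endothelium, had 0.91, 1.04 and 1.05 at 0.35 mM, against 0.58, 0.60, 0.67 and 0.64 at 0 mM (0.38, adjusted p = 0.0299). Of the 11 calls of autophagy, histones, splicing and markers of other cells, those kept numbered 5, 0 and 6 without replicate 1, 2 and 3 of 0.35 mM and 7, 4, 11 and 4 without replicate 1, 2, 3 and 4 of 0 mM; without replicate 2 of 0.35 mM, which left 0 calls by limma, the 11 had adjusted p of 0.0587 to 0.266.

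Of the 30 largest falls 22 are in none of the gene lists. Selenbp1, a selenium-binding protein with methanethiol oxidase activity, had 0.55, 0.48 and 0.27 at 0.35 mM, against 4.83, 6.12, 1.70 and 6.12 at 0 mM. The 0.35 mM arrays lay within 0.29 of each other, and the 0 mM arrays spread over 4.43 units with replicate 3 lowest (-4.26 ± 1.23, adjusted p = 0.043). Lsp1, an actin-binding protein of leukocytes, had 1.36, 1.10 and 1.09 at 0.35 mM, against 4.67, 4.96, 2.34 and 4.97 at 0 mM (-3.05 ± 0.75, adjusted p = 0.0212), with replicate 3 of 0 mM again the lowest of its group. Htr1b, a serotonin receptor, differed from these in that its 0 mM arrays were alike, with 0.81, -0.06 and 1.50 at 0.35 mM, against 3.68, 3.87, 3.79 and 3.66 at 0 mM (-3.00 ± 0.46, adjusted p = 0.00468). Cell-surface proteins among the falls were Cldn11, a claudin of tight junctions, with -0.41, -0.91 and -0.31 at 0.35 mM, against 2.28, 2.45, 1.87 and 2.19 at 0 mM (-2.74), Cd24a, a glycoprotein anchored by lipid (-2.74), Fzd7, a receptor for Wnt proteins (-2.69), and Slc43a2, a transporter of neutral amino acids (-2.06). Psrc1, Aspm and Cks2, which act in the spindle and with cyclin-dependent kinases, fell by 2.68, 2.02 and 2.04 and are no members of the mitosis list. Cks2 had 3.11, 2.83 and 2.95 at 0.35 mM, against 4.38, 5.30, 4.90 and 5.44 at 0 mM, with separate groups.

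Hydrolases of the lysosome or secreted were also among them. Arsb, the sulfatase that degrades dermatan sulfate, had 3.78, 3.44 and 3.47 at 0.35 mM, against 5.63, 6.37, 4.97 and 6.14 at 0 mM (-2.22 ± 0.49, adjusted p = 0.0135). Smpdl3a, a phosphodiesterase, Ctsf, cathepsin F, and Rnase4 fell by 2.20, 1.99 and 2.00. Frmd4b, Grcc10, Kank2 (an adaptor of cell adhesions), St6gal1 (a sialyltransferase), Pnrc1 (a nuclear receptor coactivator), Col4a5 (a collagen of basement membranes), Ahnak (a scaffold protein) and Hacd4 (a dehydratase of fatty acid elongation) were the others outside the lists, at -2.07 to -1.91. Ahnak had 3.95, 3.44 and 3.86 at 0.35 mM, against 6.01, 5.90, 5.12 and 5.69 at 0 mM. In 23 of the 30 falls replicate 3 was the lowest 0 mM array. Of the 30 calls, those kept numbered 24, 5 and 24 without replicate 1, 2 and 3 of 0.35 mM and 27, 14, 30 and 17 without replicate 1, 2, 3 and 4 of 0 mM. Cks2, Fzd7, Htr1b, Id3 and Kank2 were left without replicate 2 of 0.35 mM, the other 25 then had adjusted p of 0.0503 to 0.188, and 17 of the 30 kept their call in the 7 arrays alone.

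The same 3 arrays of 0.35 mM were also set against the neighbouring doses, so these comparisons share them with the one against 0 mM. Against 0.14 mM, 252 genes were higher at 0.35 mM (1.39%) and 481 lower (2.64%) by limma, 733 in all (4.03%), and on the quantile-normalized values 502 were higher and 474 lower. Csf3 had 7.17, 6.96 and 6.94 at 0.35 mM, against -0.45, -0.53 and -0.29 at 0.14 mM (7.45, adjusted p = 0.0189). Ifit1 had 5.70, 5.65 and 5.75 at 0.35 mM, against 0.19, 0.74 and 0.55 at 0.14 mM (5.21, adjusted p = 0.0337). All 3 arrays of 0.14 mM lay far below the 0.35 mM arrays in both genes. Of the 85 antioxidant genes 7 were higher than at 0.14 mM and 3 lower. Hmox1 had 6.59, 6.34 and 6.12 at 0.35 mM, against 4.44, 4.50 and 4.51 at 0.14 mM (1.87, adjusted p = 0.000609), and Slc7a11 differed by 3.13 (adjusted p = 0.00815). Gclm had 5.60, 5.43 and 5.25 at 0.35 mM, against 4.91, 5.11 and 5.02 at 0.14 mM, a difference of 0.42 that was not called (adjusted p = 0.738). Called genes numbered 276, 142 and 363 without replicate 1, 2 and 3 of 0.35 mM and 307, 16 and 17 without replicate 1, 2 and 3 of 0.14 mM.

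Against 0.7 mM, 0 genes (0.0%) were called by limma, and 1423 (7.82%) had an unadjusted p under 0.05. The 0.7 mM arrays were unlike each other in some genes. Csf3 had 7.17, 6.96 and 6.94 at 0.35 mM, against -0.37, -0.31 and 6.86 at 0.7 mM, and Ifit1 had 5.70, 5.65 and 5.75 at 0.35 mM, against 1.86, -0.25 and 5.73 at 0.7 mM. In both it was replicate 3 of 0.7 mM that was as high as the 0.35 mM arrays. Without that array 179 genes were called, 109 higher at 0.35 mM and 70 lower, and by limma 0 without each of the others in turn, after quantile normalization and with a trended and robust prior. Of the 85 antioxidant genes 29 had a mean above that of 0.7 mM, with a median difference of -0.12 and no call. Gclm had 5.60, 5.43 and 5.25 at 0.35 mM, against 6.76, 7.18 and 6.00 at 0.7 mM, and Slc40a1 had 2.47, 1.88 and 2.47 at 0.35 mM, against 3.88, 4.93 and 3.21 at 0.7 mM (adjusted p = 0.63 and 0.558).

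**Figure D4:**
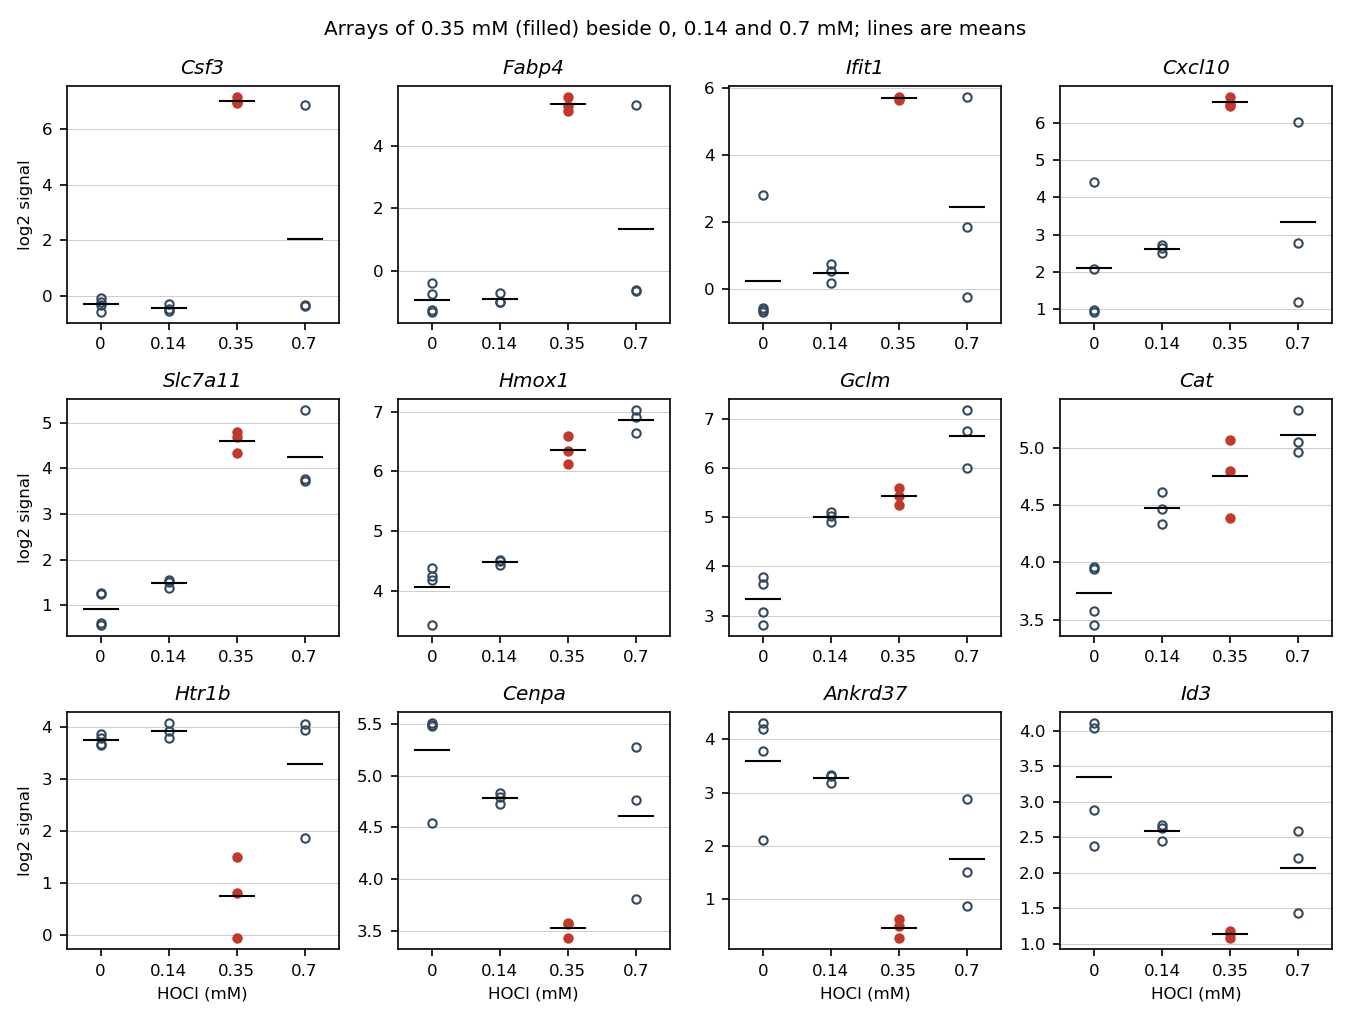
Log2 signal of 12 genes on each array at 0, 0.14, 0.35 and 0.7 mM HOCl (left to right, not to scale), with filled points for 0.35 mM, open points for the other doses and a line at each mean. Csf3, Fabp4, Ifit1 and Cxcl10 are high on all 3 arrays of 0.35 mM and on 1 array of 0.7 mM, while Gclm has 5.25 to 5.60 at 0.35 mM and 4.91 to 5.11 at 0.14 mM.

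Calls depended on single arrays. Replicate 2 of 0.35 mM was the lowest of its group in 726 of the 1011 genes that fell (71.8%), where it was the lowest in 49.3% of all genes, and the highest in 71 of the 385 that rose. Of the 190 list members called, 105 higher and 85 lower out of 1029 measured, 19 were called without it. No gene described as changed had a difference of the other sign under any alternative run. Over the 7 omissions of 1 array, 72 genes were called in every one, 31 higher and 41 lower at 0.35 mM.

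**Figure D5:**
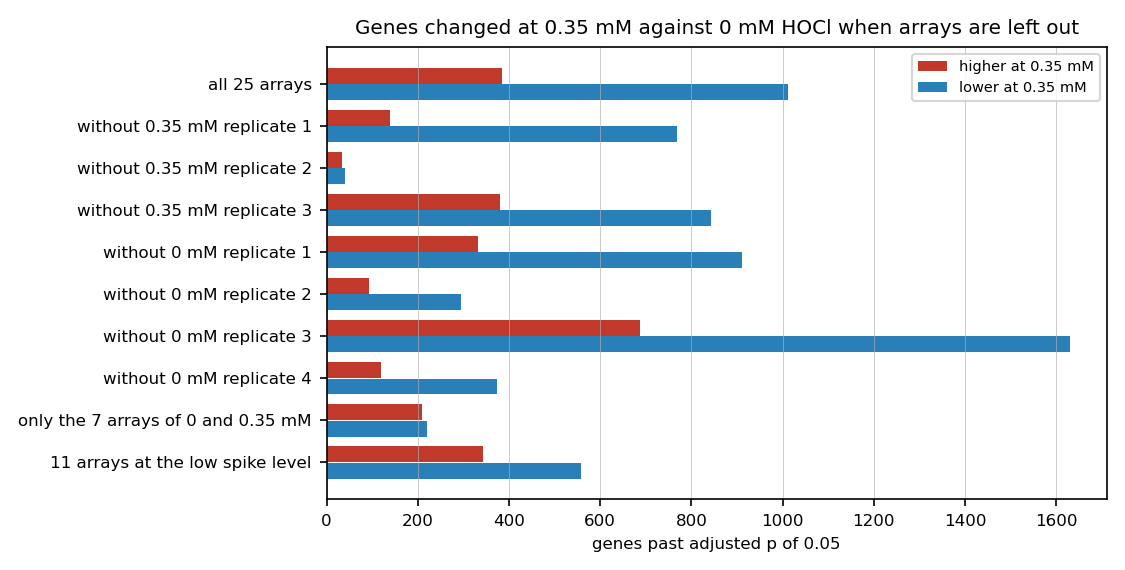
Number of genes past an adjusted p of 0.05, higher (red) and lower (blue) at 0.35 mM against 0 mM, with all 25 arrays, without each of the 7 arrays in turn, with the 7 arrays alone and with the 11 arrays of low spike level. The bars run from 34 higher and 41 lower without replicate 2 of 0.35 mM to 688 higher and 1630 lower without replicate 3 of 0 mM.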

How the data were processed

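The authors deposited 1 table of log2 signals per probe set for 25 arrays, made with RMA per the submitters' processing notes and with Array Assist per the labels' design text. The sources used here name no version of RMA or of Array Assist and no options. The base of the log is not stated and base 2 was inferred from the values, each array has a median of 0, and the scale was kept. Of 45101 probe sets 64 controls were left out, and 45037 were tested. Groups come from the titles. By GEO's platform annotation 34945 probe sets carry 1 symbol, 932 several and 9160 none, and each of 18193 genes is represented by its brightest probe set with 1 symbol.

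A cell-means model over all 25 arrays was fitted with limma 3.58.1 in R 4.3.3 (lmFit, contrasts.fit and eBayes with default prior), with Benjamini-Hochberg adjustment over the 45037 probe sets and a threshold of 0.05. The fit had 17 residual and 2.99 prior degrees of freedom. It was run on simulated data with known changes, whose noise was independent between arrays and equal across doses. Such data hold no arrays that stand apart, so they cannot show how often the fit calls falsely here. Figures used matplotlib 3.10.9.

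Named are the 30 largest rises and 30 largest falls with separate groups, all called members of 26 gene lists (1029 of 1127 genes measured), and up to 4 uncalled members of each list role with the lowest p. Some other uncalled genes, such as Ddit3, are named as well. Control genes and cell markers are given as groups, with only some of them named. Members and lists were chosen with earlier results of these data known. Promoters are RefSeq's on GRCm38.p6, and 14452 measured genes have one in the table used. Alternatives changed the arrays in the fit, the normalization, the prior, the probe sets tested, array weights, the spike level and the replicate block.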

Additional observations from a re-analysis of the deposited data

Results flagged for a closer look

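In 24 named genes 1 of the 4 arrays of 0 mM lay far from the other 3, by the gap to the nearest array as a share of the range (Dixon's test at 95%). Chance gives this in about 1 in 20 groups of arrays, and over all genes it held for 1402 (7.71%), with replicate 1 apart in 917, replicate 2 in 97, replicate 3 in 334 and replicate 4 in 54.

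Among interferon genes replicate 3 of 0 mM had 2.81 for Ifit1, where the other 0 mM arrays had -0.68 to -0.58. It had 4.01 for Cmpk2 (others 0.94 to 1.43), 6.26 for Usp18 (others 4.04 to 4.27) and 4.57 for Ifih1 (others 3.03 to 3.17). Replicate 1 of 0 mM had 0.023 for Ifnb1 (others -0.36 to -0.32) and 4.30 for Irf7 (others 5.02 to 5.11).

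Among cytokine, sensor, scavenger and iron genes it was replicate 1 of 0 mM. It had 3.12 for Il1rn (others 1.63 to 1.85), 1.02 for Csf2 (others 0.30 to 0.38) and 3.36 for Casp1 (others 3.07 to 3.10). It had 1.68 for Cd36 (others -0.22 to -0.12) and 1.97 for Slc11a2 (others 1.79 to 1.81). For Nfe2l2 it had 2.16 (others 4.75 to 4.97).

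Among genes of division, replicate 1 of 0 mM had 4.54 for Cenpa (others 5.47 to 5.51) and 1.44 for the histone gene H3c4 (others 0.16 to 0.30), and replicate 3 had 4.70 for Aurka (others 4.21 to 4.27). Replicate 3 of 0 mM stood apart for 4 genes of energy metabolism, with 3.62 for Acadm (others 3.87 to 3.91), 2.73 for Egln1 (others 3.61 to 3.77), 5.57 for Ndufa1 (others 6.19 to 6.26) and 5.44 for Uqcrfs1 (others 5.77 to 5.82). It also had 2.06 for Adgre1 (others 3.25 to 3.49), 2.58 for Fcgr3 (others 4.14 to 4.17), 2.34 for Lsp1 (others 4.67 to 4.97), 4.04 for Grcc10 (others 5.53 to 5.81) and 6.41 for Psma3 (others 6.11 to 6.15).

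Outside the main measurement, the mean of the 8 probe sets for Bacillus spike-in transcripts was 1.75 on replicate 3 of 0.35 mM, above the 0.74 to 1.12 of the other 0.35 mM arrays and the 0 mM arrays.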

How the results depend on the processing

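Signals on 3 and 4 arrays limit the precision, and counts followed the arrays used. Leaving out each array in turn gave 163 to 4851 probe sets (2898 with all), 75 to 2318 genes (1396 with all) and 19 to 271 list members (190 with all), 16 to 363 genes against 0.14 mM (733 with all) and 0 to 179 against 0.7 mM (0 with all). The lowest counts against 0 mM came without replicate 2 of 0.35 mM and the highest without replicate 3 of 0 mM. The 7 arrays alone, which have 5 residual degrees of freedom, gave 774 probe sets, 431 genes and 112 list members. The arrays of low spike level gave 1851 probe sets and 903 genes, and spike level as a term gave 121 list members. Testing 1 probe set per gene gave 1551. Of 217 named genes called, 202 kept the call after quantile normalization, 204 with a trended and robust prior, 144 at low spike level and 113 in the 7 arrays alone. None changed sign in any alternative, but some alternatives leave the differences themselves as they are. The cause of the shifts in counts was not tested.

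Limma's default array weights did not converge and were not run. Chosen after seeing the data, gene-by-gene array weights gave 11142 probe sets, 4994 genes and 516 list members, and leaving out replicate 2 of 0.35 mM with replicate 1 of 0 mM gave 91, 41 and 12. Of the uncalled genes, Nfe2l2 (0.48) took the other sign at -0.00752 with those weights and -0.033 with both arrays out, and it ranged between -0.20 and 0.74 over the single omissions; Nqo1 (0.07) ranged between -0.066 and 0.26.

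With replicate number as a block, 950 probe sets, 460 genes and 77 list members were called. Residuals of same-numbered arrays correlated at -0.04, -0.39 and -0.18, so the numbers do not pair the arrays.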
